A study of Anethum foeniculum with 6 samples.

Results

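Abundant leaf transcripts of fennel that stood higher under added red light were examined here. They were chosen by their measured levels: they are the rows of the count table with a mean of at least 50 CPM (counts scaled to a library total of 1000000) over all 6 libraries, with the lowest red library above the highest control library, and with a mean red CPM of at least 4 times the mean control CPM. The rule was met by 64 of the 127290 rows, which is 2.19% of the 2928 rows with a mean of at least 50 CPM. Of the 2928 rows, 238 (8.13%) had separated groups with red higher and 87 (2.97%) had the 4-fold ratio. The same rule turned downwards was met by 23 rows, 0.786% of the 2928. The rule used the red and control values of all 6 libraries, so the height of these transcripts in red leaves is a description and not a finding, and no test is given for it.

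The red group is leaf tissue of fennel (Anethum foeniculum in the labels) under ambient sunlight with supplemental red light from light-emitting diodes, and the control group is leaf tissue under ambient sunlight alone, with 3 libraries each. Per the series title the plants were leafy fennel grown in hydroponics, and the lamps gave a narrow band of red wavelengths. The labels name no cultivar, plant age, light dose or duration, and call the libraries biological replicates without saying how many plants each holds. The design asks how leaf transcripts differ when red light is added to sunlight.

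Red light is sensed in plants mainly by the phytochromes, photoreceptors that switch between an inactive and an active form on absorbing red or far-red light. Active phytochrome enters the nucleus, where it causes phytochrome-interacting factors to be degraded and so changes the transcription of many genes. Red light is also absorbed by chlorophyll and drives photosynthesis, whose components account for many of the most abundant messenger RNAs of a green leaf. The aroma of fennel comes largely from phenylpropenes such as anethole and from terpenes. The rows carry identifiers of a de novo assembly, which the files do not pair with gene names or sequences, so which of the transcripts below belong to any of these processes was not analysed here. For the same reason the leaf label was not checked against marker genes, and no sequence is shown. Transcripts are therefore called by their rank in mean red CPM, from rank 1, the most abundant, to rank 64, and 2 of them are given by identifier.

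Total counts per library ran from 18839959 to 22673552 in red and from 18040162 to 22992137 in control. Red replicate 1 had a count in 71504 rows, against 50525 to 57556 in the other libraries. In edgeR's quasi-likelihood test of red over control on 36013 rows, 0 rows had a Benjamini-Hochberg adjusted p under 0.05 (0% of those tested), and 3172 (8.81%) had an unadjusted p under 0.05. Of the 64 transcripts, 63 passed that test's filter on low counts. In these bulk samples, more cells of a type and more RNA per cell cannot be told apart.

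**Figure D1:**
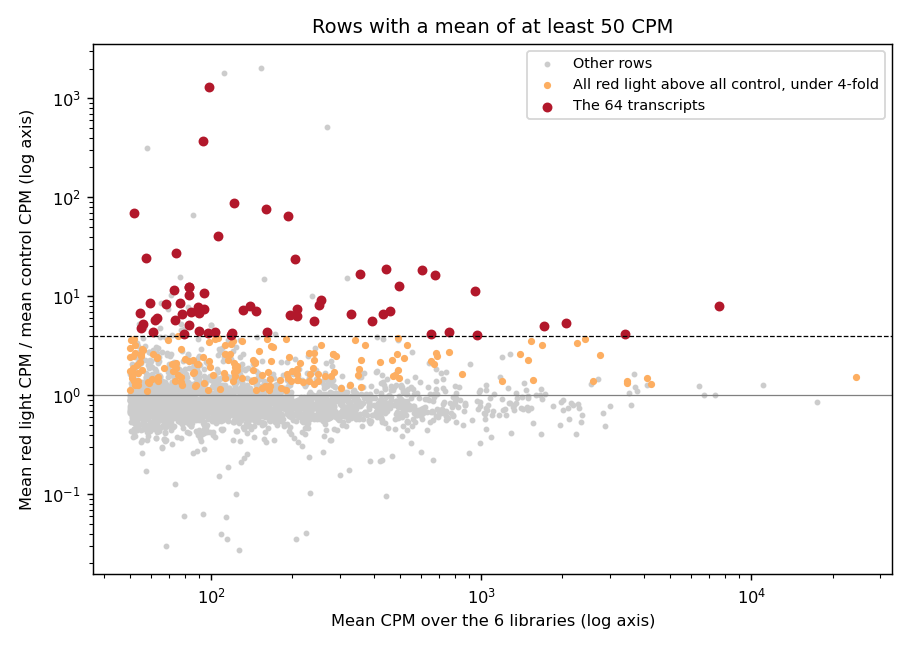
Ratio of mean red light CPM to mean control CPM against mean CPM over the 6 libraries, for the 2928 rows with a mean of at least 50 CPM (both axes logarithmic). The 64 transcripts lie above the dashed line at 4-fold, the 174 rows whose red light values all exceed the control values by a smaller ratio lie below it, and grey points above the line are rows whose groups overlap.

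Together the 64 transcripts took 4.58%, 6.23% and 3.59% of all counts in red replicates 1 to 3, against 0.970%, 0.533% and 0.657% in control replicates 1 to 3. The mean share was 4.80% ± 1.33 in red and 0.720% ± 0.225 in control (SD, n = 3 each), a ratio of 6.66. Red replicate 2 had the largest share and red replicate 3 the smallest of the red libraries, and control replicate 1 had the largest of the controls. The red mean was 4.91% without red replicate 1, 4.08% without red replicate 2 and 5.40% without red replicate 3.

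Few transcripts made up most of that sum. Ranks 1 to 4 held 51.1%, 52.1% and 56.5% of the 64 transcripts' counts in red replicates 1 to 3, against 61.4%, 52.3% and 60.8% in control replicates 1 to 3. The 44 transcripts from rank 21 downwards held 21.2%, 17.1% and 10.9% in red and 11.9%, 16.5% and 13.5% in control. Their part of the sum was thus smallest in red replicate 3. Excluding rank 1, the other 63 transcripts took 3.44% ± 1.01 of all counts in red and 0.550% ± 0.158 in control (SD, n = 3 each).

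**Figure D2:**
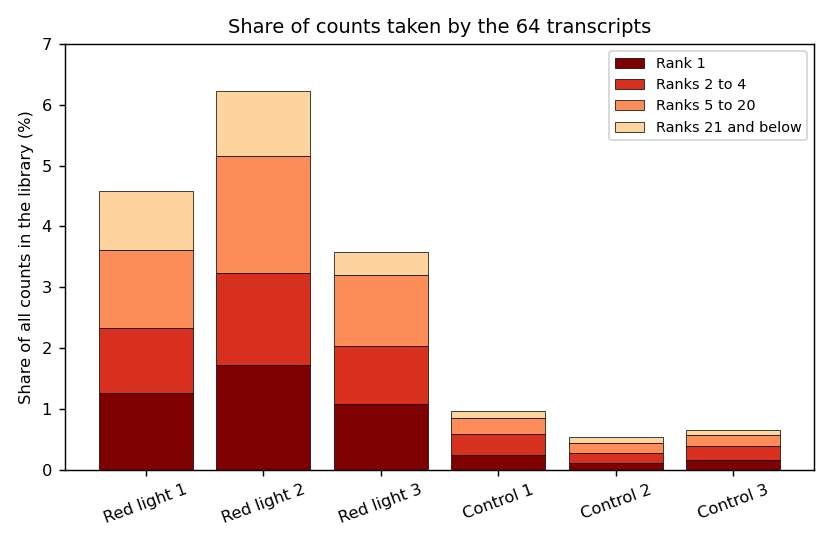
Share of all counts in each library taken by the 64 transcripts, stacked by rank in mean red light CPM. The 3 red light bars reach 4.58%, 6.23% and 3.59%, and no control bar exceeds 0.970%.

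The most abundant of them was TRINITY_DN742_c0_g1, rank 1. It stood at 12691, 17174 and 10761 CPM in red replicates 1 to 3, against 2420.0, 1068 and 1613 CPM in control replicates 1 to 3. All 3 red values lay far above the controls, the lowest red value being 4.45 times the highest control value. On the means it was 13542 ± 3290 CPM in red and 1700.3 ± 680.3 CPM in control (SD, n = 3 each), a ratio of 7.96 and an edgeR log2 fold change of 3.13. By mean level it was the 3rd row of the whole table in red leaves and the 43rd in control leaves. The highest library was 1.60 times the lowest in red and 2.27 times in control.

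Ranks 2 to 4 were abundant in sunlit control leaves as well. Rank 2 had 5360.0, 6907 and 4206 CPM in red, against 1693, 946.7 and 1336 CPM in control. Rank 3 had 3098, 4015 and 3307 CPM in red, against 1079, 430.5 and 437.8 CPM in control. In both, red replicate 2 was the highest red library and control replicate 1 the highest control. Rank 4 had 2217, 4329 and 2004 CPM in red, against 759.9, 346.3 and 605 CPM in control. Their ratios of means, between 4.14 and 5.35, were below the median of the 64, and control replicate 2 was the lowest control in all of ranks 1 to 4.

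In order of rank, ratios above 10 began at rank 5. Rank 5 had 2410, 2203 and 603.8 CPM in red, against 177, 156 and 133 CPM in control, a ratio of means of 11.2. Rank 7 had 1009, 1917 and 903.8 CPM in red, against 118.5, 43.2 and 71.0 CPM in control, a ratio of 16.5. Rank 9 had 1792, 1382 and 266.0 CPM in red, against 95.7, 32.5 and 60.4 CPM in control, a ratio of 18.2. Red replicate 3 was the lowest red library in these 3 transcripts and, in ranks 5 and 9, lay several-fold under the other red libraries. Ranks 11 and 12 showed another order. Rank 11 had 521.5, 1191 and 1052 CPM in red, against 75.3, 65.4 and 75.3 CPM in control, and rank 12 had 341.0, 1239 and 962.8 CPM in red, against 40.6, 65.5 and 28.1 CPM in control. Here red replicate 1 was the lowest red library, and both groups stayed wide apart.

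**Figure D3:**
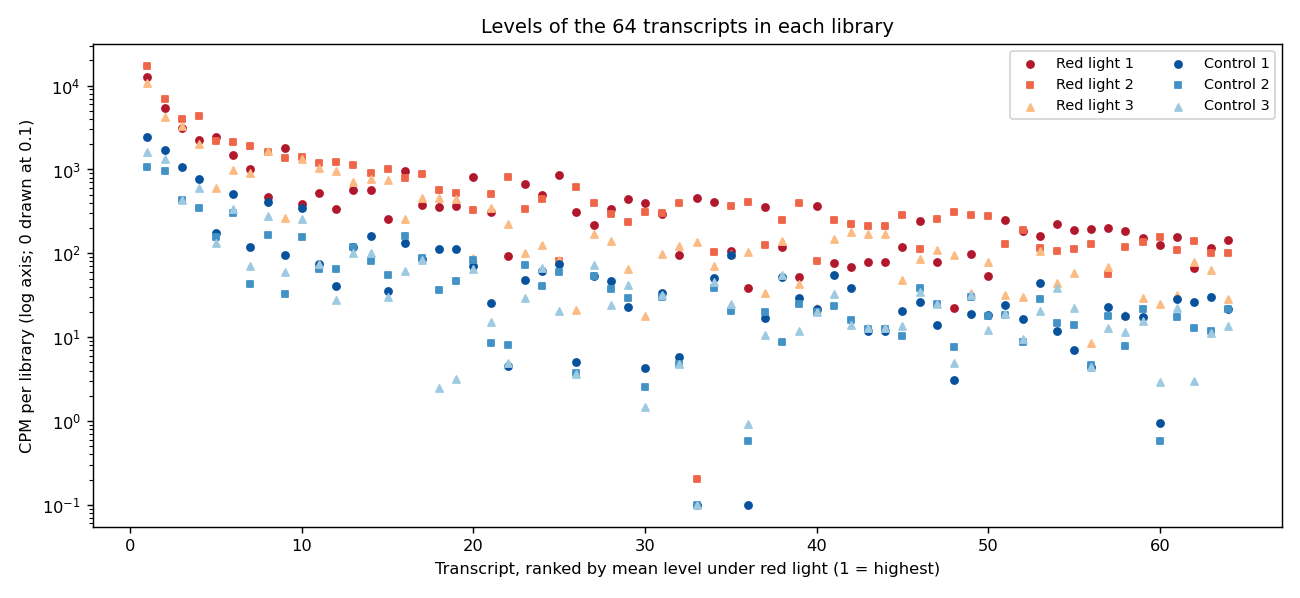
Level of each of the 64 transcripts in CPM (logarithmic axis) in the 3 red light libraries and the 3 control libraries, ordered by mean level under red light. Red light points lie above the control points of the same transcript by the rule, and the distance ranges from a gap of 42.1-fold at rank 36 to near contact at ranks 35, 40 and 58.

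By level, 10 of the 64 transcripts had a mean of at least 1000 CPM in red, 22 had 200 to 1000 CPM and 32 had less than 200 CPM. In control leaves 21 had a mean of at least 50 CPM, 37 had 5 to 50 CPM and 6 had less than 5 CPM. Among the 100 rows with the highest mean, 10 of the 64 were found in red leaves and 2 in control leaves. The rule, which asks for a higher mean in red, favours the first of these numbers. The ratio of means ran from 4.03 upwards with a median of 7.17 and quartiles of 5.34 and 12.4, where the median over all 2928 rows of at least 50 CPM was 0.856. At least 8-fold was reached by 26 transcripts, 16-fold by 14 and 32-fold by 7. Spearman's rho over the 64 transcripts, which share the same 6 libraries, was -0.56 between the ratio and the mean control CPM and 0.014 between the ratio and the mean red CPM. The first of these has the control mean on both sides.

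The transcripts with the largest ratios were scarce in control leaves rather than the most abundant in red leaves. TRINITY_DN4706_c0_g1, rank 30, had the largest ratio of those with more than 3 counts in every library. Its level was 394.9, 309.7 and 17.99 CPM in red replicates 1 to 3, against 4.27, 2.53 and 1.48 CPM in control replicates 1 to 3. All red values exceeded the controls, but red replicate 3 held 5.11% of the mean of red replicates 1 and 2. The means were 240.9 ± 197.7 CPM in red and 2.76 ± 1.41 CPM in control (SD, n = 3 each), a ratio of 87.3 and an edgeR log2 fold change of 6.61. Without red replicate 3 the edgeR log2 fold change was 7.16, and without red replicate 1 it was 6.04.

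Other transcripts that were scarce in control leaves differed in which red libraries were high. Rank 26 had 308.8, 618.0 and 21.2 CPM in red, against 5.10, 3.75 and 3.61 CPM in control. Rank 56 had 192.3, 130.8 and 8.55 CPM in red, against 4.43, 4.70 and 4.44 CPM in control. Like rank 30, both were high in red replicates 1 and 2 and closer to the controls in red replicate 3. Rank 22 had 93.7, 818.7 and 226.5 CPM in red, against 4.55, 8.13 and 4.87 CPM in control. Rank 32 had 96.6, 400.7 and 122.0 CPM in red, against 5.82, 4.75 and 4.83 CPM in control. In ranks 22 and 32 every red library was more than 10 times the highest control, with gaps of 11.5 and 16.6-fold. Rank 36 had 38.5, 414.8 and 104.5 CPM in red, against 0, 0.580 and 0.913 CPM in control, where a count of 0 in control replicate 1 allows up to 0.166 CPM. Its gap of 42.1-fold was the widest of the 64. In ranks 22, 32 and 36, red replicate 2 stood highest of the red libraries and red replicate 1 lowest.

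Rank 33 was the only one of the 64 with no count in any control library. It had 454.1, 0.203 and 137.0 CPM in red replicates 1 to 3, where the value of red replicate 2 rests on 4 counts as deposited. Set against 3 counts in each control library, its red mean was at least 1299-fold higher. It was also the one transcript that the filter of the edgeR test left out.

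Separation of the groups was narrow in many of the 64 and wide in others. The lowest red library stood at least 4-fold above the highest control in 16, at least 2-fold in 38 and under 1.2-fold in 10, with a median of 2.43. Rank 35, just inside the limits on both separation and ratio, had 107.7, 365.4 and 97.9 CPM in red, against 96.5, 20.4 and 24.97 CPM in control. Rank 40 had 370.5, 81.2 and 22.5 CPM in red, against 21.6, 19.9 and 19.9 CPM in control. Rank 20 had 815.0, 324.9 and 88.4 CPM in red, against 70.3, 82.7 and 65.3 CPM in control. In ranks 20 and 40 the controls were nearly equal, and red replicate 3 lay next to them.

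At the limits themselves, the 2 lowest ratios of means inside were 4.03 and 4.04, and the 2 highest outside, among separated rows, were 3.93 and 3.81. For abundance, the 2 lowest means over all libraries inside were 51.9 and 54.8 CPM, and the 2 highest outside were 49.2 and 48.0 CPM. For separation, the lowest red library was 1.02 times the highest control in both of the nearest transcripts inside, and 0.952 and 0.918 times in the nearest rows outside. Another 174 rows of at least 50 CPM were separated upwards by less than 4-fold, 26 of them by 3-fold or more. A further 23 rows reached 4-fold on the means while their groups overlapped. Red replicate 3 alone lay within or under the control values in 14 of these 23, red replicate 1 alone in 3 and red replicate 2 alone in 2.

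The order of the 3 red libraries, which the rule does not set, took mainly 2 forms. Red replicate 3 was the lowest red library in 37 of the 64 transcripts (57.8%), red replicate 1 in 24 (37.5%) and red replicate 2 in 3 (4.69%). Red replicate 2 was the highest in 37, red replicate 1 in 26 and red replicate 3 in 1. Among the 2864 other rows of at least 50 CPM, red replicate 3 was the lowest in 29.1%, red replicate 1 in 49.1% and red replicate 2 in 21.9%. Among the 174 rows separated upwards by less than 4-fold, those shares were 68.4%, 19.5% and 12.1%. The difference between these shares was not tested.

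**Figure D4:**
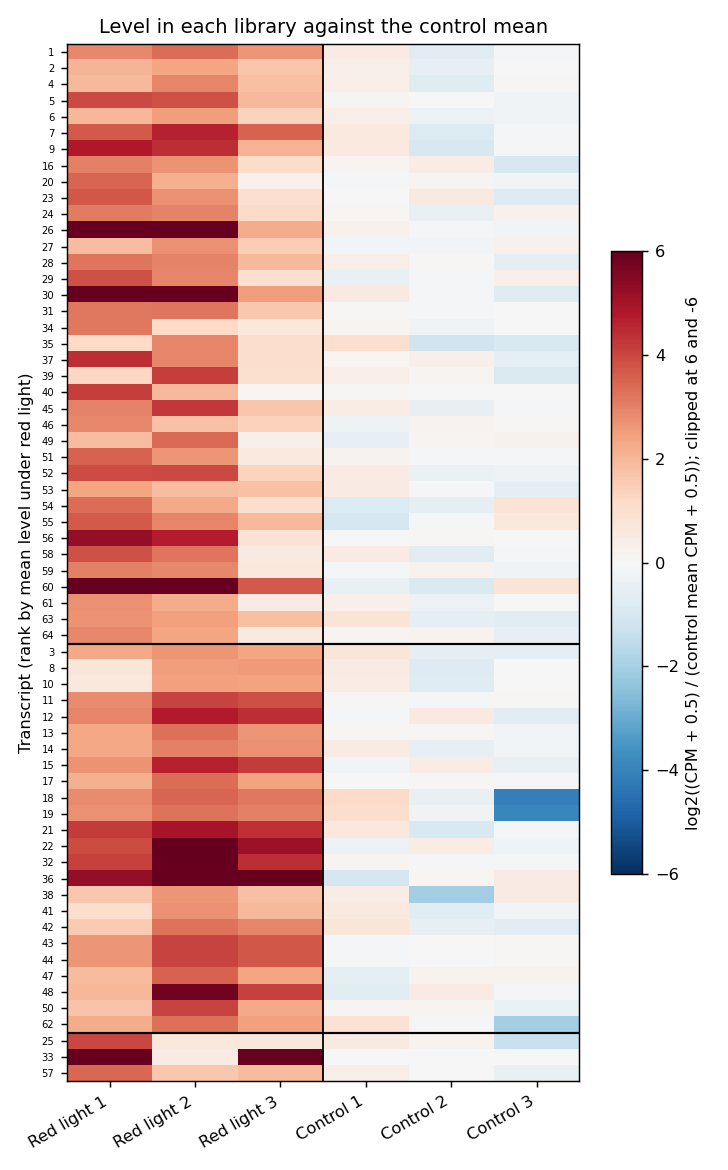
Level of each of the 64 transcripts in each library relative to its control mean, as log2((CPM + 0.5) / (control mean CPM + 0.5)) and clipped at 6 and -6. Horizontal lines divide the 37 transcripts lowest in red light 3 (top), the 24 lowest in red light 1 (middle) and the 3 lowest in red light 2 (bottom), and the paler cells of the third column at the top and of the first column in the middle show these orders.

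In the 37 transcripts lowest in red replicate 3, the median ratio to the control mean was 9.18 in red replicate 1, 7.73 in red replicate 2 and 2.58 in red replicate 3. Red replicate 3 held between 4.57% and 77.7% of the mean of the other red libraries, with a median of 24.2%. The gap to the controls was under 2-fold in 20 of the 37. Rank 1 was among them, as were ranks 2, 4, 5, 6, 7 and 9, and 23 of the 37 were highest in red replicate 1.

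In the 24 transcripts lowest in red replicate 1, the median ratio to the control mean was 4.9996 in red replicate 1, 11.7 in red replicate 2 and 8.02 in red replicate 3. Red replicate 1 held between 11.0% and 84.6% of the mean of the other red libraries, with a median of 41.7%. The gap to the controls was under 2-fold in 4 of the 24 and at least 2-fold in 20. Red replicate 2 was the highest in 23 of them. Rank 8, the exception, had 467.5, 1602 and 1640.1 CPM in red, against 403.9, 167.6 and 276.5 CPM in control.

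The 3 transcripts lowest in red replicate 2 were ranks 25, 33 and 57, and all were highest in red replicate 1. Rank 25 had 849.8, 81.8 and 83.8 CPM in red, against 75.3, 60.4 and 20.4 CPM in control, so that its red mean rested on 1 library. Rank 57 had 201.0, 56.4 and 68.7 CPM in red, against 23.004, 17.8 and 12.8 CPM in control.

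**Figure D5:**
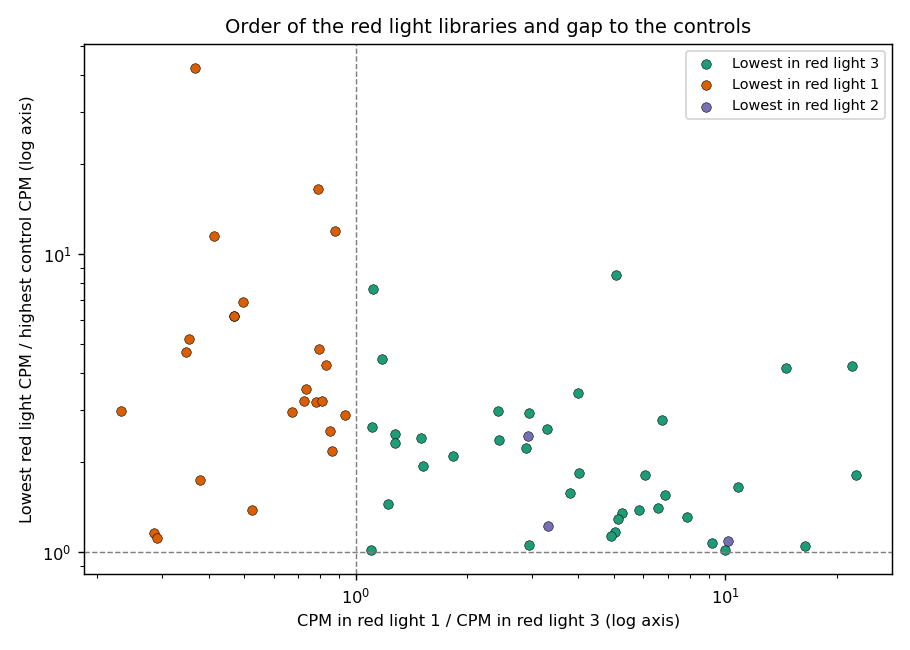
Ratio of the lowest red light CPM to the highest control CPM against the ratio of red light 1 to red light 3, for the 64 transcripts (both axes logarithmic, rank 33 set against 3 counts in the control with the highest limit). Of the transcripts lowest in red light 1, 20 of 24 lie at or above a gap of 2, against 17 of 37 for those lowest in red light 3.

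Taken singly, the red libraries differed in how many transcripts reached 4-fold over the control mean. Red replicate 2 did so for 57 of the 64, red replicate 1 for 51 and red replicate 3 for 30, and 24 transcripts reached it in every red library. The highest red library was at least 5 times the lowest in 26 transcripts and less than 2 times in 10, with a median of 3.77. For the 2912 rows of at least 50 CPM with a count in all libraries, that median was 1.71. Among controls the median was 1.92 for the 62 of the 64 with a count in every control, and 1.31 for the 2912 rows. The rule asks for a high red mean, which 1 high red library can give, so it can favour a wide red spread. The 64 were also not matched to the 2912 rows for level in control leaves. These medians were not tested against each other, and nothing is read from their difference.

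Control leaves also had an order of their own. Control replicate 1 was the highest control in 37 of the 64 (57.8%), where it was the highest in 29.0% of the 2864 other rows of at least 50 CPM. Control replicate 1 was also the highest control in 54.0% of the 174 rows separated upwards by less than 4-fold. Of the 62 transcripts with a count in every control, ranks 18 and 19 showed the widest spread among controls. Rank 18 had 356.7, 572.3 and 455.4 CPM in red, against 111.5, 36.9 and 2.48 CPM in control, and rank 19 had 364.0, 530.8 and 448.9 CPM in red, against 113.5, 46.8 and 3.13 CPM in control. The highest red library was 1.60 and 1.46 times the lowest, whereas control replicate 1 was 45.0 and 36.2 times control replicate 3.

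Several transcripts kept nearly the same proportion to one another in every library. Likeness was measured as the SD over the 6 libraries of the log2 ratio of (CPM + 0.5) between 2 transcripts. For 53 of the 64 the most alike of the 2928 rows of at least 50 CPM was another of the 64, and the median SD to the most alike row was 0.32. That number largely restates the rule, because the ratio is taken over red and control libraries together and the 64 share a large difference between them. Ranks 8 and 10 had an SD of 0.077, and rank 8 was 1.07 to 1.22 times rank 10 in every library. The SD was 0.14 for ranks 13 and 17, 0.17 for ranks 12 and 15 and 0.18 for ranks 18 and 19. Ranks 11 and 43 had an SD of 0.12, with rank 11 at 5.29 to 6.55 times rank 43. Pairs with an SD under 0.3 made up 0.694% of the 2016 pairs among the 64, where they made up 13.6% of all pairs among the 2928 rows. Whether alike rows are pieces of one transcript could not be examined without their sequences.

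The 64 rows came from 57 assembled clusters, here defined by the DN number of the identifier (62 by DN and c number together). A single member was found in 53 of these clusters, and 11 transcripts lay in the other 4. One cluster held ranks 7, 14 and 48, another ranks 12, 17 and 18, another ranks 13, 43 and 44, and the last ranks 41 and 62. Ranks 43 and 44 had identical counts in all 6 libraries, so the 64 rows hold 63 distinct profiles and those 2 are 1 measurement. Equal counts in rows of one cluster leave it unsettled whether the deposited whole numbers are read counts or rounded estimates. Rows of a cluster may share reads and are not independent. Of the 11 transcripts, 10 were lowest in red replicate 1. The median SD of the log2 ratio was 1.01 over the 10 pairs within clusters and 1.21 over all 2016 pairs.

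Other rows of the same clusters were not mainly higher in red. With a mean of at least 5 CPM, 70 such rows were found in 29 of the 57 clusters. Their mean was higher in red in 30 of the 70 (42.9%), with 10 separated upwards (14.3%) and 10 downwards (14.3%). Among the 14015 rows of at least 5 CPM outside the 64, 38.3% had the higher mean in red, 6.60% were separated upwards and 18.1% downwards. These shares were not tested against each other. The median ratio of red to control was 0.897 for the 70 rows and 0.901 for the 14015. The clusters of ranks 7, 12 and 13 held 2, 2 and 1 of the 70 rows. The median ratio was 4.34 for the 2 rows of rank 12's cluster, and the 1 row of rank 13's cluster had 6.77. In the cluster of rank 7, 1 of these rows was separated upwards and 1 downwards, so their median of 21.4 describes neither.

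In the fits across the whole table, the 64 transcripts had a median edgeR log2 fold change of 2.98, where the median over all 36013 tested rows was 0.0027. An adjusted p under 0.05 was reached by 0 of them in edgeR's quasi-likelihood test, with a smallest value of 0.179, and by 0 in limma-voom, which called 0% of rows. An unadjusted edgeR p under 0.05 with a higher level in red was found for 63 of the 64 and for 5.04% of all tested rows. DESeq2 gave 60 of the 64 an adjusted p under 0.05, where it called 2.64% of rows higher, and 3 others had no adjusted p. When edgeR was run on the 2928 abundant rows alone, 12 of the 64 had an adjusted p under 0.05, and these were all of the rows called higher (0.41%). Without a filter on low counts edgeR called 53 of the 64 (0.174% of rows called higher), and without red replicate 3 it called 7 (0.0495%). Since the same libraries chose the transcripts, nothing is read from these counts.

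Leaving out a library moved which transcripts met the limits on ratio and mean. Without red replicate 1, 45 of the 64 still had a 4-fold ratio and a mean of 50 CPM, and without red replicate 2, 40 had both. Without red replicate 3 it was 62. Without control replicates 1, 2 and 3 the numbers kept were 64, 55 and 60. Taken alone, the 4-fold ratio was kept by 53 without red replicate 1 and by 53 without red replicate 2. The mean of 50 CPM alone was kept by 50 and 49. All 64 kept that mean when a control library was left out. A mean with fewer red than control libraries leans towards the lower group. Applied anew to 5 libraries, the rule took in 57, 43 and 111 rows without red replicates 1, 2 and 3. It took in 87, 70 and 71 rows without control replicates 1, 2 and 3. Separation is easier to meet with fewer libraries.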

How the data were processed

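Leaf RNA of 6 fennel libraries was measured by RNA-seq, 3 under red light added to sunlight and 3 under sunlight alone. Per the labels' protocols, total RNA from about 50 mg of leaf was treated with DNase and sequenced on an Illumina NovaSeq with paired reads of 150 bp. The authors deposited 1 table of whole-number counts per assembled gene, treated here as raw counts although they may be rounded estimates; its identifiers follow Trinity's naming, and columns were matched to samples by library name. For aligner, counter, assembler version and row filters nothing is given in the sources used here, and no reference was used. CPM were computed from column totals without further scaling, and a limit of 3 counts equals 0.130 to 0.166 CPM, for counting error only. edgeR's quasi-likelihood test (4.0.16, R 4.3.3; filterByExpr, TMM, 36013 rows, Benjamini-Hochberg adjustment, two-sided) was run on all 6 libraries with treatment as the only term. DESeq2 (1.42.0), limma-voom (3.58.1), other scalings and filters, a replicate block and leaving out each library were alternatives. The tests weigh the difference between the groups against the spread between libraries of the same group. The replicate labels do not name plants, so whether that is a spread between plants is not known. Transcripts given by identifier are the one with the highest mean red CPM and the one with the largest ratio of means among those with more than 3 counts in every library. The other ranks described, and the division by lowest red library, were chosen after their values were seen. The members and the rule were chosen with earlier results of these data known.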

Additional observations from a re-analysis of the deposited data

How the results depend on the processing

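The number of rows meeting the rule was 64. It was 78 with TMM-scaled and 79 with DESeq2-scaled libraries, 91 at 25 CPM and 56 with ratios from means of log2 CPM, against 35 at 100 CPM, 142 at 2-fold, 26 at 8-fold and 42 on counts summed per assembled cluster. With 1 library left out it ranged from 43 to 111, the highest without red replicate 3. The ratio of summed shares (6.66) stayed between 5.67 and 8.07 and the median ratio of means (7.17) between 6.12 and 8.86 over the alternatives run. Red replicate 3 was the lowest red library in 37 of the 64 transcripts, in 38 of 64 with either scaling and in 37 of 57 with 1 transcript per assembled cluster.

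In edgeR's quasi-likelihood test, 0 rows had an adjusted p under 0.05. Other settings gave 1636 rows with DESeq2 (60 of the 64), 254 without a filter on low counts (53), 14 on rows of at least 50 CPM (12), a setting added after seeing the data, and 0 to 43 with 1 library left out (0 to 7), of which only the fit without red replicate 3 gave any. Limma-voom and both other scalings in edgeR gave 0. Library size alone shifted the median log2 fold change of all rows to -0.11. The causes were not tested. The replicate numbers shared by the groups did not act as pairs. For this check each row's mean log2 CPM in its own group was subtracted first. The remaining deviations of red and control libraries of equal number had correlations of -0.057, -0.022 and -0.048. Adding them as a replicate block to edgeR gave 0 rows, with 1912 at an unadjusted p under 0.05. The log2 fold change of TRINITY_DN742_c0_g1 ranged from 2.87 to 3.48 and that of TRINITY_DN4706_c0_g1 from 5.89 to 7.16.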
